A study of Mus musculus with 7 samples.

Results

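*Cpsf4l*, its paralog *Cpsf4* and 6 genes that encode subunits of the cleavage and polyadenylation machinery (*Cpsf1*, *Cpsf2*, *Cpsf3*, *Fip1l1*, *Wdr33* and *Cstf2*) were examined in the fetal testis with and without functional *Glis3*. These 8 genes were taken by symbol from the 24739 genes of the deposited expression table, and each matched 1 row. *Cpsf4l* was chosen by its FPKM, which were low in every mutant library, so its values are a description and were not tested. The other genes were chosen for what they encode and not for a measured value.

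The data are RNA-Seq of whole testes at E14.5 from mice on a C57BL/6 background, with the testis pair of 1 embryo in each library. There were 3 libraries from wild-type embryos and 4 from embryos homozygous for the *Glis3* zf5 allele (*Glis3* zf5/zf5), a global null mutation in which exon 4 and parts of the introns beside it are deleted. Every cell of the embryo carries the mutation, so a difference in whole testis can arise in any cell type. Ribosomal RNA was depleted and no poly-A selection was made, so RNA with and without a tail was sequenced, including unspliced RNA. Gene levels are given as FPKM, fragments per length of transcript and per sequenced library, after the scaling of libraries that the authors used; the number of fragments behind each value is unknown.

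The 3′ end of nearly every mRNA is made by cleavage of the growing transcript and addition of a poly(A) tail. The cleavage and polyadenylation specificity factor (CPSF) recognises the AAUAAA hexamer upstream of the cleavage site through WDR33 and the zinc finger protein CPSF4, with CPSF1 as the scaffold. CPSF3 is the endonuclease, CPSF2 is its catalytically inactive relative, FIP1L1 holds poly(A) polymerase, and CSTF2, a subunit of the cleavage stimulation factor, binds GU-rich sequence downstream of the site. *Cpsf4l* encodes a less studied protein related to CPSF4. GLIS3 is a Krüppel-like zinc finger transcription factor that binds G-rich DNA elements.

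The library labelled wild-type replicate 3 stood apart from the other wild-type libraries. *Glis3* was at 7.63 and 6.89 FPKM in wild-type replicates 1 and 2 and at 2.91 FPKM in wild-type replicate 3, against 3.86, 3.26, 2.90 and 2.66 FPKM in mutant replicates 1 to 4. These values are over the whole gene and do not separate the deleted exon. Across the 13988 genes tested, its log2 values correlated most closely with those of mutant replicate 3 (r = 0.990, across genes, which are not independent replicates). The summed FPKM of 8 germ cell markers was 1398, 1096 and 602 for wild-type replicates 1 to 3, compared with 649, 553, 547 and 484 for mutant replicates 1 to 4, so that wild-type replicate 3 lay among the mutants. The markers of Sertoli cells and fetal Leydig cells, which define the tissue with germ cells, were present in every library, at sums of at least 877 and 1596 FPKM. In whole testis, fewer cells of a type and less RNA per cell cannot be told apart. Results are therefore given with all libraries and, where stated, also without wild-type replicate 3.

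*Cpsf4l* (gene ID 52670) lies on chromosome 11 of mm10, chr11:113698171-113710017, on the minus strand. GENCODE M21 lists 5 transcripts of it with 4 to 8 exons. RefSeq (GRCm38.p6) gives it windows at 2 start sites, at positions 113710017 and 113709526. The 250 bases before each are shown because *Cpsf4l* has the largest difference between the groups among the 8 genes. Capitals mark runs of CCCCCC, the reverse complement of GGGGGG.
Cpsf4l, chr11:113710018-113710267, minus strand: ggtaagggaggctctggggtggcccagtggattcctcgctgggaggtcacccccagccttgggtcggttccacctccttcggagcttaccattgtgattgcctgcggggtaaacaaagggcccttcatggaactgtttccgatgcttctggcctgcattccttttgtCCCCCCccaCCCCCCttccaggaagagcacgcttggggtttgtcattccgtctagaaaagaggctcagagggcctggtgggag
Cpsf4l, chr11:113709527-113709776, minus strand: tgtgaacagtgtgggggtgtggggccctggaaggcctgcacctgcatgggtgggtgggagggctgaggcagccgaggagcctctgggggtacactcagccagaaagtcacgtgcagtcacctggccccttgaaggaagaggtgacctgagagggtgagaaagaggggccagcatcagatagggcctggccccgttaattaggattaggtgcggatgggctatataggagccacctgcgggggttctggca
An 8-base G-rich core of the GLIS type, TGGGGGGT or ACCCCCCA on the other strand, was searched in windows of 250 bases before and 50 bases after each start site. It was found in 501 of the 32851 windows in the mouse table (1.53%) and in 0 of the 8 windows held for 6 of the genes studied here. The shorter GGGGGG, which lies within that core and was searched after the windows had been read, was found on either strand in 17.9% of all windows and, among these 8, only in the first *Cpsf4l* window. A match is a description of letters and no site, and its absence says only that these letters are not in this window. The *Cpsf4l* windows held 7 and 8 CG dinucleotides, near the median of 7 over all windows, and the windows of *Cpsf4*, *Cpsf2*, *Cpsf3*, *Fip1l1* and *Cstf2* held 24 to 35.

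*Cpsf4l* was at 13.7, 9.34 and 7.50 FPKM across the wild-type libraries, compared with 0.568, 0.995, 1.06 and 0.944 FPKM across the mutant libraries. The lowest wild-type library was above every mutant library, and wild-type replicate 3, which resembled the mutants in *Glis3* and in germ cell markers, kept *Cpsf4l* at 7.50 FPKM. The group means were 10.2 ± 3.17 (SD, n = 3) and 0.891 ± 0.221 (SD, n = 4) FPKM, which is 91.2% lower in the mutant, or 11.4-fold higher in wild-type. Without wild-type replicate 3 the wild-type mean was 11.5 ± 3.06 (SD, n = 2) FPKM and the ratio was 12.9. On the log2(FPKM + 0.5) scale, where the added constant shrinks differences at low FPKM, the difference (mutant minus wild-type) was -2.91 with a standard error of 0.21 and a 95% interval from -3.39 to -2.44. Among the 13988 genes tested, those averaging 0.5 FPKM or more over the libraries, this was the second most negative value, and 5 genes were at -2 or below and 4 at 2 or above. These figures restate the choice of the gene.

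**Figure D1:**
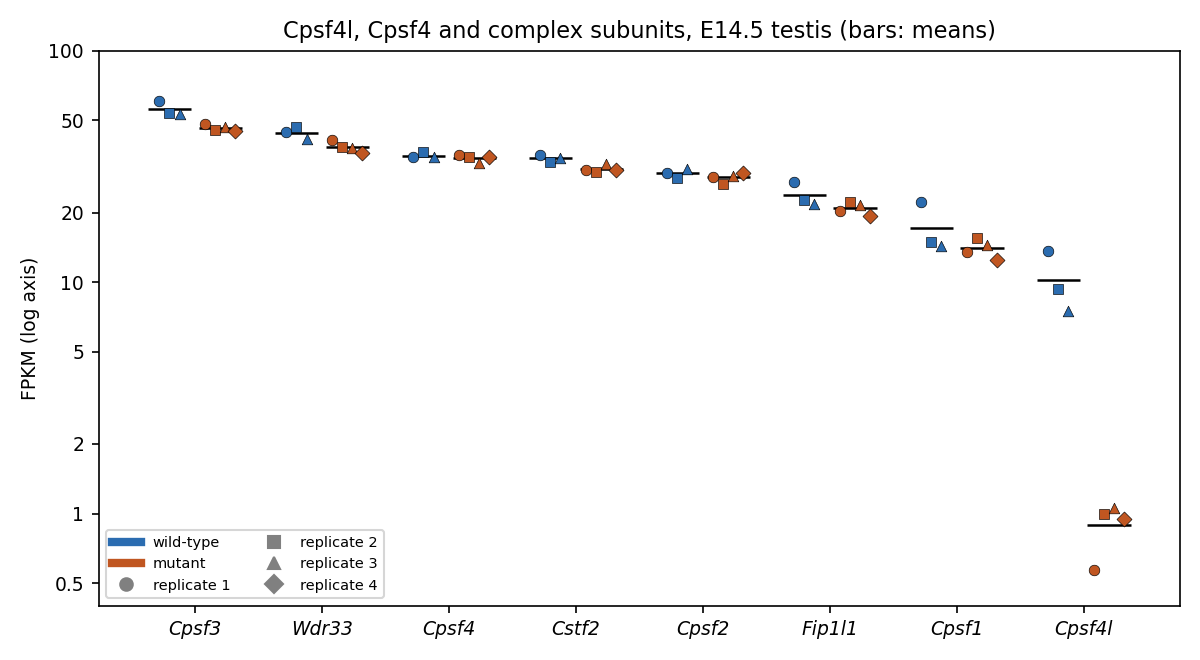
FPKM (log axis) of the 8 genes in each library, ordered by wild-type mean, with wild-type libraries in blue, mutant libraries in orange, a marker shape for each replicate number and a bar at each group mean. *Cpsf4l* lies at 7.50 FPKM or more in wild-type and at 1.06 FPKM or less in the mutant, and the means of the other 7 genes differ by at most 1.22-fold.

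*Cpsf4*, the paralog (gene ID 54188, chr5:145167213-145182041), was at 34.7, 36.4 and 34.6 FPKM in wild-type testes and at 35.5, 34.6, 32.6 and 34.8 FPKM in mutant testes. The groups overlapped and it was the steadiest of the 8 genes, with its highest library 1.11-fold above its lowest. The log2 difference was -0.04 (standard error 0.06, 95% interval -0.16 to 0.09, limma adjusted p = 0.777, two-sided exact permutation p = 0.457), and -0.05 without wild-type replicate 3. An increase of *Cpsf4* in the mutant by more than 0.09 on the log2 scale lay outside the interval from all libraries. *Cpsf4l* accordingly made up 28.3%, 20.4% and 17.8% of the FPKM of the pair across the wild-type libraries, compared with 1.58%, 2.80%, 3.14% and 2.64% across the mutant libraries. The sum of both genes was 45.4 ± 3.16 (SD, n = 3) FPKM in wild-type and 35.3 ± 1.07 (SD, n = 4) FPKM in the mutant, a difference that holds the chosen gene's own. Reads of the paralogs can be told apart: no stretch of 50 bases in the annotated transcripts of either occurs in a transcript of any other gene, and the longest run that *Cpsf4l* and *Cpsf4* transcripts share is 17 bases.

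The other subunits were all more abundant per length than *Cpsf4l*. In wild-type testes the order of mean FPKM was *Cpsf3* (55.8), *Wdr33* (44.3), *Cpsf4* (35.2), *Cstf2* (34.3), *Cpsf2* (29.6), *Fip1l1* (23.8), *Cpsf1* (17.1) and *Cpsf4l* (10.2), and the order was the same in the mutant. The wild-type ranges of *Cpsf4* and *Cstf2* overlapped, as did those of *Fip1l1* and *Cpsf1*, and the other neighbours in the order were apart. In the mutant the ranges of all neighbours in the order were apart.

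*Cpsf3*, the endonuclease (gene ID 54451, chr12:21286297-21315056), was at 60.4, 54.0 and 53.0 FPKM in wild-type testes and at 48.1, 45.4, 46.7 and 45.2 FPKM in mutant testes. Every mutant library was below every wild-type library. The log2 difference was -0.26 (standard error 0.06, 95% interval -0.41 to -0.12), which did not pass the threshold over all genes (limma adjusted p = 0.169). The two-sided exact permutation test gave 0.0286, the smallest p that 3 against 4 libraries allow. Without wild-type replicate 3 the adjusted p was 0.0520, the lowest over the alternatives, and the highest was 0.365. *Cpsf2*, the inactive relative of the endonuclease (gene ID 51786, chr12:101975974-102005993), was at 29.5, 28.3 and 30.8 FPKM in wild-type testes and at 28.6, 26.7, 28.9 and 29.5 FPKM in mutant testes. Its groups overlapped, with a log2 difference of -0.06 (95% interval -0.20 to 0.08, limma adjusted p = 0.674), and -0.03 without wild-type replicate 3.

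*Wdr33*, which reads the hexamer (gene ID 74320, chr18:31804057-31908987), was at 44.5, 46.9 and 41.4 FPKM in wild-type testes and at 41.0, 38.4, 38.0 and 36.2 FPKM in mutant testes. The groups were apart by less than 1 FPKM. The log2 difference of -0.20 (95% interval -0.36 to -0.05) did not pass the threshold (limma adjusted p = 0.210, two-sided exact permutation p = 0.0571). Without wild-type replicate 3 the difference was -0.25 (limma adjusted p = 0.0843). *Cstf2*, the GU-binding subunit on the X chromosome (gene ID 108062, chrX:134059176-134086822), was at 35.4, 33.1 and 34.3 FPKM in wild-type testes and at 30.5, 29.9, 32.3 and 30.4 FPKM in mutant testes. The groups were again apart by under 1 FPKM, and the log2 difference of -0.15 (95% interval -0.28 to -0.02) did not pass (limma adjusted p = 0.241, two-sided exact permutation p = 0.0571). It was again -0.15 without wild-type replicate 3 (limma adjusted p = 0.214).

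*Cpsf1*, the scaffold (gene ID 94230, chr15:76595808-76607591), was at 22.2, 14.9 and 14.3 FPKM in wild-type testes and at 13.5, 15.5, 14.5 and 12.5 FPKM in mutant testes. Wild-type replicate 1 alone was high, and the other wild-type libraries lay within the mutant range. The log2 difference was -0.26 (95% interval -0.60 to 0.08, limma adjusted p = 0.411), -0.06 without wild-type replicate 1 and -0.37 without wild-type replicate 3. *Fip1l1*, which holds poly(A) polymerase (gene ID 66899, chr5:74535482-74597124), was at 27.2, 22.6 and 21.7 FPKM in wild-type testes and at 20.4, 22.2, 21.6 and 19.4 FPKM in mutant testes. Wild-type replicate 1 was again the highest, and the log2 difference was -0.18 (95% interval -0.39 to 0.02, limma adjusted p = 0.345) and -0.09 without it. Leaving out wild-type replicate 3 instead gave -0.25.

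Each of the 7 genes beside *Cpsf4l* had a log2 difference below 0, from -0.26 to -0.04, with a median of -0.18 against 0.01 over all genes tested, of which 47.9% were below 0. In limma 0 of 7 passed an adjusted p of 0.05, where 0.00715% of all genes were called lower and 0.0% higher. That share is 1 of 13988 genes, a total that includes the chosen *Cpsf4l*. With so few calls in all, 0 of 7 does not set these genes apart from others. At an unadjusted p of 0.05, 3 of 7 were lower, against 8.79% of all genes, and without wild-type replicate 3 they were 4 of 7 against 13.1%. In 3 of 7 (*Cpsf3*, *Wdr33* and *Cstf2*) every mutant library was below every wild-type library, against 7.59% of all genes, and without wild-type replicate 3 they were 4 of 7 against 17.1%. The 7 genes stayed below 0 under all 16 alternative fits, and their median was between -0.09, without wild-type replicate 1, and -0.25, without wild-type replicate 3. The FPKM of a gene that shares exons with a neighbour can take in reads of the neighbour: *Fip1l1* shares transcript sequence with *Lnx1*, *Cstf2* with *Nox1*, *Cpsf3* with *Itgb1bp1* and *Cpsf2* with *Ndufb1-ps*.

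**Figure D2:**
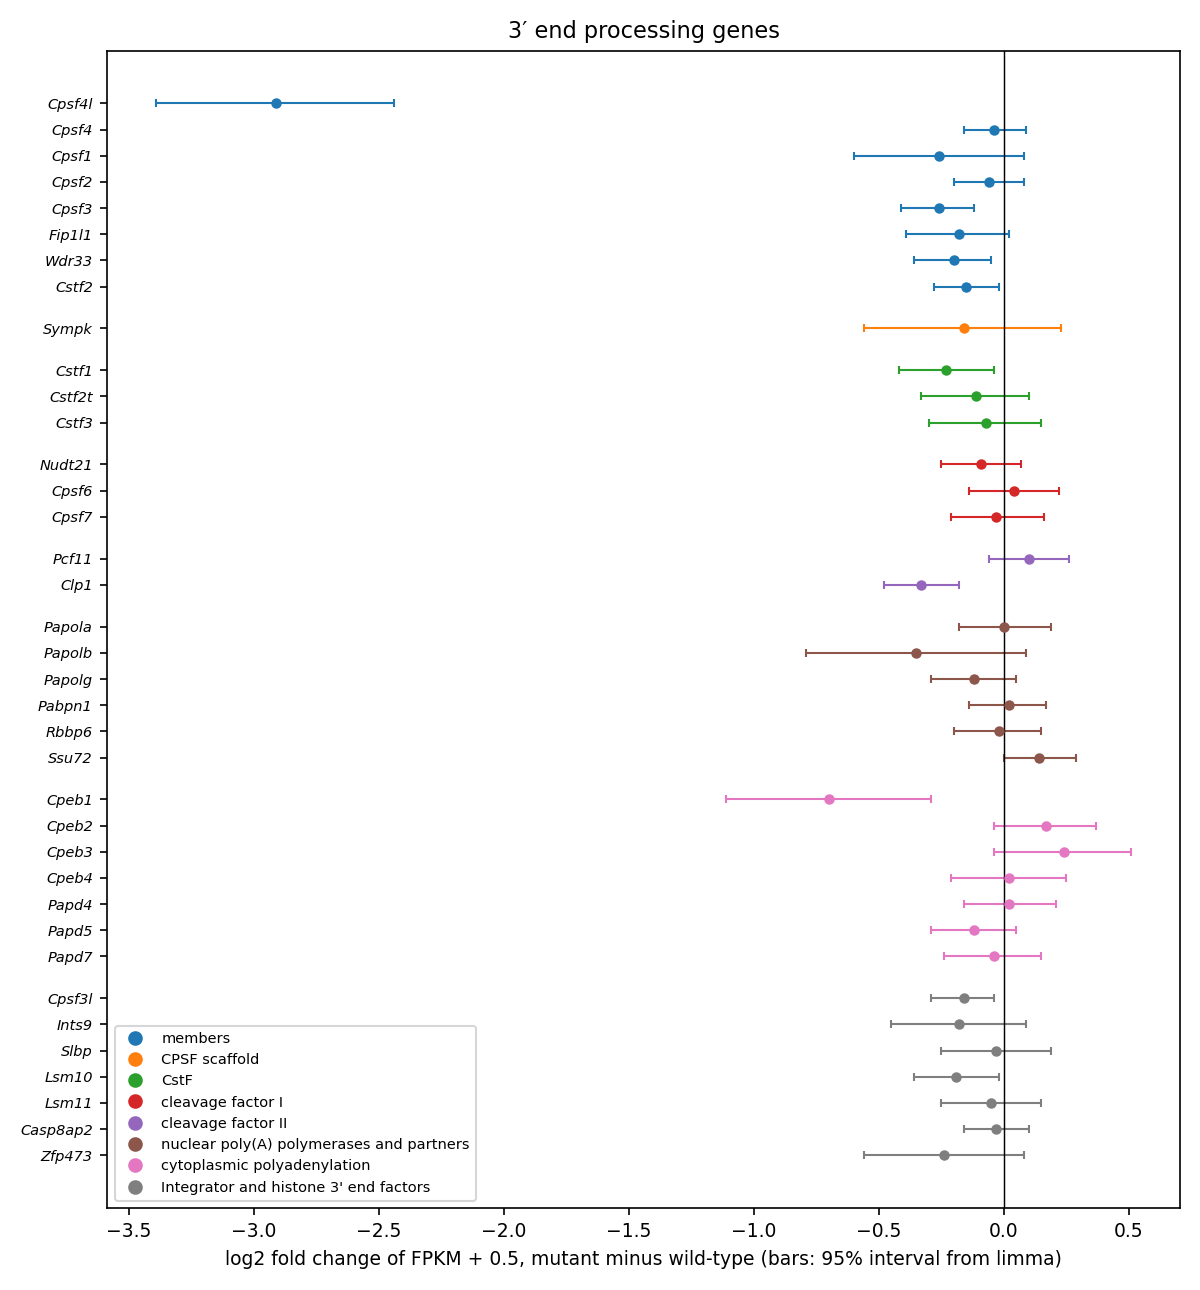
Log2 fold change (mutant minus wild-type, of FPKM + 0.5) of the 8 genes and of the 29 tested genes of the wider list, coloured by complex, with bars for the 95% interval from limma (3 wild-type and 4 mutant libraries). *Cpsf4l* lies at -2.91, apart from all the others, which lie between -0.70 and 0.24.

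A wider list of 30 genes for 3′ end formation was examined for context, and 29 of them passed the filter on low values. In the limma fit 0 of 29 passed the threshold, where 1 of all 13988 genes did. At an unadjusted p of 0.05, 5 were lower and 0 higher, against 8.79% and 8.21% of all genes. The median log2 difference was -0.05 (range -0.70 to 0.24), with 20 genes below and 9 above 0. In 4 genes every mutant library was below every wild-type library (13.8%, against 7.59% of all genes), and in 3 every mutant library was above (against 7.31% of all genes). Without wild-type replicate 3 the count of genes lower in every mutant library was 9 (31.0%, against 17.1% of all genes), and the count at an unadjusted p of 0.05 was again 5 (17.2%, against 13.1% of all genes).

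Of the other complex members, *Sympk*, which encodes the scaffold symplekin, was at 25.7, 14.5 and 16.4 FPKM in wild-type testes and at 14.8 to 18.0 FPKM in mutant testes, with wild-type replicate 1 high as for *Cpsf1*. Its log2 difference was -0.16, turned to 0.08 without that library, and was -0.24 without wild-type replicate 3. *Cstf2t*, the autosomal copy of *Cstf2* known for its part in male germ cells, was at 50.9, 43.1 and 41.7 FPKM in wild-type testes and at 44.3, 43.6, 42.3 and 36.7 FPKM in mutant testes. The groups overlapped (log2 difference -0.11, limma adjusted p = 0.562). The difference was -0.03 without wild-type replicate 1 and -0.17 without wild-type replicate 3. *Nudt21*, the RNA-binding subunit of cleavage factor I, was at 16.1 to 16.6 FPKM in wild-type testes and at 13.9 to 16.1 FPKM in mutant testes (log2 difference -0.09, limma adjusted p = 0.538, and -0.04 without mutant replicate 3).

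*Clp1*, an RNA kinase in cleavage factor II, was at 34.4, 38.3 and 35.2 FPKM in wild-type testes and at 29.7, 26.5, 29.0 and 28.7 FPKM in mutant testes. The groups were apart, and the log2 difference of -0.33 (95% interval -0.48 to -0.18) did not pass the threshold (limma adjusted p = 0.149, and 0.0467 without wild-type replicate 3). *Papola*, the main nuclear poly(A) polymerase, had similar means in both groups, 53.0 ± 5.64 (SD, n = 3) and 52.9 ± 1.96 (SD, n = 4) FPKM, with an interval of the log2 difference from -0.18 to 0.19. *Papolb*, the testis-specific polymerase of later spermatogenesis, was low, at 0.923, 1.13 and 0.434 FPKM in wild-type testes and at 0.484 to 0.558 FPKM in mutant testes, and wild-type replicate 3 lay below every mutant library. *Ssu72*, an RNA polymerase II phosphatase, was at 67.1, 75.6 and 75.2 FPKM in wild-type testes and at 77.3 to 82.1 FPKM in mutant testes. The log2 difference of 0.14 did not pass (limma adjusted p = 0.298). It was 0.09 without wild-type replicate 1 and 0.17 without wild-type replicate 3.

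The cytoplasmic polyadenylation group, which lengthens tails of stored mRNAs, held the most negative and the most positive value of the list. *Cpeb1*, which encodes the founding binding protein of this group, was at 12.6, 7.64 and 7.37 FPKM in wild-type testes and at 4.59, 5.19, 5.92 and 5.56 FPKM in mutant testes. Every mutant library was lower, by 42.3% on the means, and the log2 difference of -0.70 (95% interval -1.11 to -0.29) did not pass over all genes (limma adjusted p = 0.173, and 0.0486 without wild-type replicate 3). *Cpeb2* was at 2.35 to 2.62 FPKM in wild-type testes and at 2.68 to 3.02 FPKM in mutant testes, and *Cpeb3* at 0.592 to 0.755 FPKM and 0.838 to 1.01 FPKM. Both were higher in every mutant library, and neither passed the threshold (limma adjusted p = 0.377 and 0.351).

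A second readout came from counts of uniquely mapped reads on repeat loci (LINE, SINE and LTR copies) that lie inside a gene and touch no annotated exon, which sample mostly its introns. They were scaled to CPM (counts per 1000000) of the effective library size, which is the total of such reads times the TMM factor of edgeR. The totals were 1676837 to 2496080 reads per library in the 11111 genes that averaged 10 reads or more. The counts were made without regard to strand.

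Inside *Cpsf4l*, 17 of 24 such loci held reads, with 78, 28 and 65 reads across the wild-type libraries, compared with 22, 21, 29 and 29 across the mutant libraries. These were 30.9, 15.3 and 30.2 CPM in wild-type testes and at 11.9, 12.0, 16.9 and 15.6 CPM in mutant testes. Wild-type replicates 1 and 3 were above every mutant library, and wild-type replicate 2 lay within the mutant range. The mutant mean was 0.553 of the wild-type mean (14.1 ± 2.51, SD, n = 4, against 25.5 ± 8.80, SD, n = 3), where the FPKM mean was 0.0877 of it. The log2 difference of the repeat reads was -0.87, between -0.71 and -1.12 over the alternatives, against -2.91 for FPKM. FPKM per CPM of these reads was 0.442, 0.609 and 0.248 in wild-type testes and 0.0476, 0.0830, 0.0628 and 0.0607 in mutant testes. The groups were apart, in a ratio whose numerator is the value by which the gene was chosen. Counting error is wide at 21 to 78 reads, and wild-type replicate 2 has the lowest read count of its group.

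**Figure D3:**
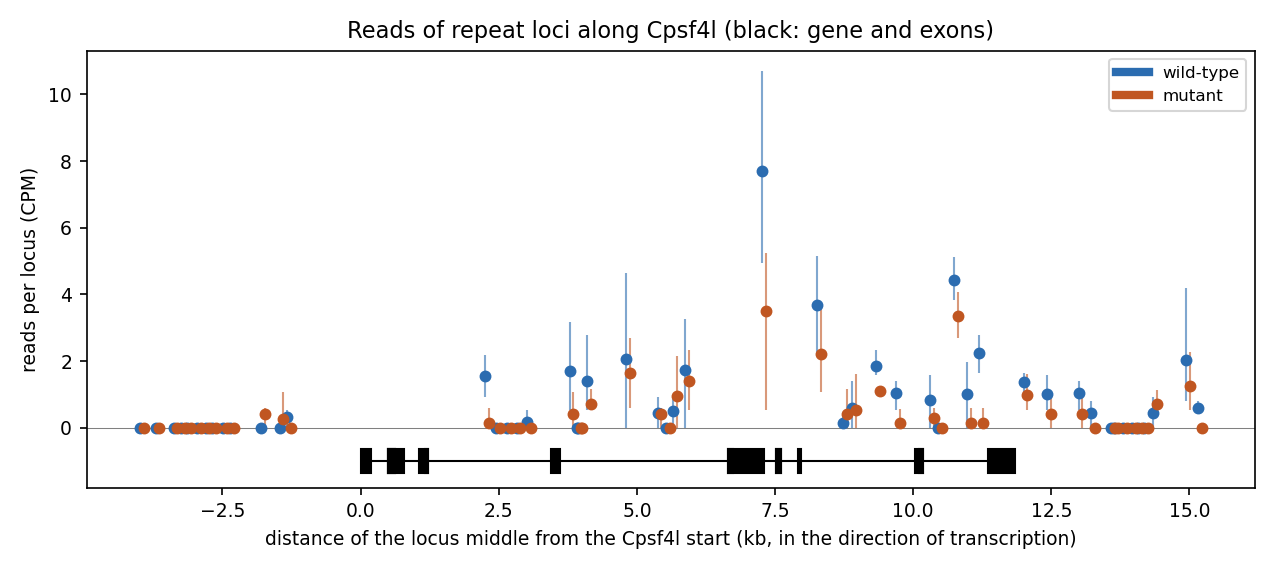
Reads per repeat locus (CPM) against distance from the start of *Cpsf4l* in the direction of transcription (kb), with points for the group means and lines from the lowest to the highest library, wild-type in blue and mutant in orange. Black boxes are exons of any annotated transcript. Loci before the start hold almost no reads in either group, and the loci inside the gene hold reads in both.

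The reads began inside the gene. In the 10000 bases before its start, 30 loci together held 1 to 4 reads in each library. In the first 6000 bases of the gene the mutant mean was 0.592 of the wild-type mean, and in the rest 0.529. The groups overlapped in both parts. Wild-type testes were at 11.5, 4.38 and 13.0 CPM in the first part and at 19.4, 10.95 and 17.2 CPM in the rest. Mutant testes were at 5.14 to 6.44 CPM and at 6.50 to 11.05 CPM. In the first part wild-type replicate 2 was below every mutant library, on 8 reads. Near the end of the gene, one ID_B1 copy 10780 bases from the start held 11, 7 and 11 reads in wild-type testes and 7, 5, 7 and 5 in mutant testes, while a B1_Mur4 copy at 11221 bases held 7, 3 and 5 reads in wild-type testes and 0, 0, 1 and 0 in mutant testes. These 2 loci were singled out after their counts had been seen. One further locus, an ID4_ copy at 7296 bases, touches an exon of 1 short transcript (Cpsf4l-204) and was counted apart, with 27, 9 and 16 reads in wild-type testes and 1, 6, 9 and 9 in mutant testes.

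Germ cell markers were examined beside *Cpsf4l*. Their sum averaged 0.541 of wild-type in the mutant, with 4 of 8 markers lower in every mutant library (against 7.59% of all genes), none of the 8 under 0.5 FPKM throughout, and overlapping sums. The 8 were *Ddx4*, *Dazl*, *Pou5f1*, *Dppa3*, *Sall4*, *Utf1*, *Dnd1* and *Mael*. The authors report *Ddx4* and *Mael* as reduced, and the germ cell genes *Boll*, *Hormad1* and *Lefty2*, which are not in this list, as unchanged. The sum thus depends on the markers listed and does not count germ cells. By staining of sections at E14.5, the authors counted germ cells per area and report no difference between mutant and wild-type. Elsewhere they date the first detected loss of germ cells to this same day. Per 1000 FPKM of those markers, *Cpsf4l* was at 9.78, 8.52 and 12.5 FPKM in wild-type testes and at 0.875, 1.80, 1.93 and 1.95 FPKM in mutant testes. The ratio of wild-type to mutant was thus 6.25 relative to these markers and 11.4 without that scaling, in values that again hold the FPKM by which the gene was chosen, and wild-type replicate 3 was the highest of all libraries. Sums of fetal Leydig, adrenal cortex and Sertoli cell markers averaged 1.39, 1.47 and 1.17 of wild-type in the mutant, with overlapping sums, and 2 of 5 Leydig and 1 of 5 Sertoli markers were higher in every mutant library (against 7.31% of all genes). Macrophage markers were the only list of the 10 examined whose sum did not overlap, at 9.77 to 10.6 FPKM in wild-type testes and at 11.2 to 13.8 FPKM in mutant testes. Of single genes, 7.59% were apart and lower and 7.31% apart and higher, so 1 list of 10 is near that background. Only 1 of the 4 macrophage markers was itself higher in every mutant library. Skeletal muscle markers reached from 1.34 to 29.0 FPKM over the libraries with no split by group, and 3 of the 4 mesonephric duct markers were under 0.5 FPKM in every library. The part of these cell types in the differences of the 8 genes was not tested.

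**Figure D4:**
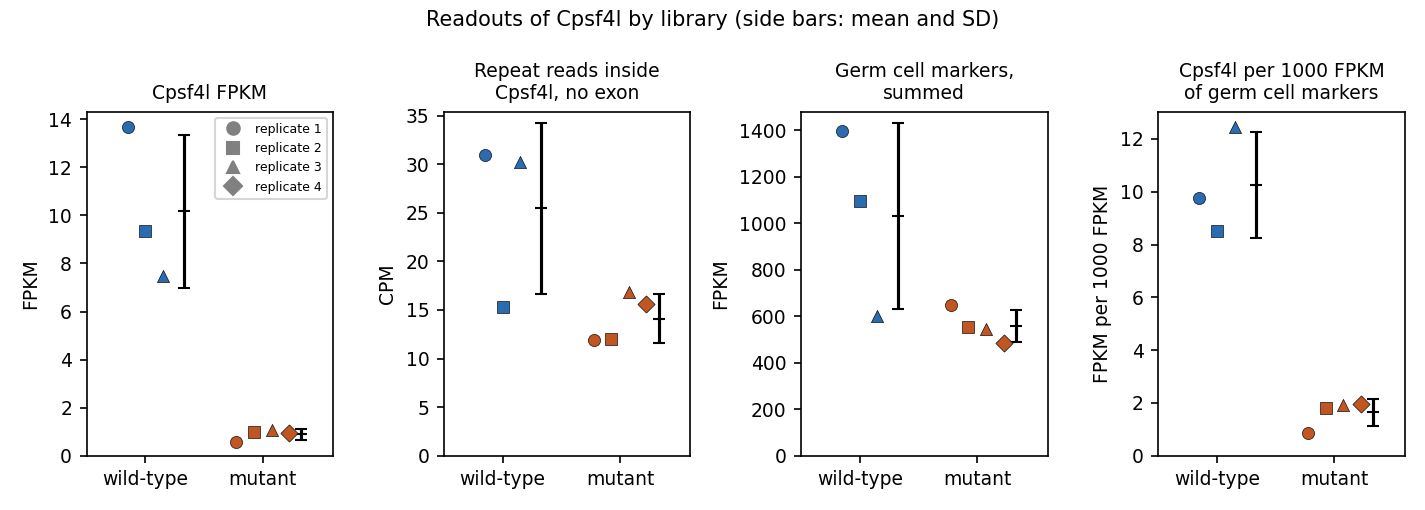
Per-library values of *Cpsf4l* FPKM, of reads on repeat loci inside *Cpsf4l* that touch no exon (CPM), of the summed germ cell markers (FPKM) and of *Cpsf4l* per 1000 FPKM of those markers, with mean and SD beside the points (3 wild-type libraries in blue, 4 mutant libraries in orange). The groups are apart in the first and the last panel and overlap in the other 2, and wild-type replicate 3 (triangle) lies among the mutants for the markers only.

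The same readout was tested for the 7 other genes with the quasi-likelihood test of edgeR. It called 0 of 7 at an adjusted p of 0.05, where 0.09% of all genes were lower and 0.162% higher, and 0 of 7 at an unadjusted p of 0.05, where 5.13% of all genes were lower and 6.05% higher. DESeq2 also called 0. The median log2 difference was -0.15, and 4 of 7 genes were below 0. *Fip1l1* was the best covered, with 845 to 1438 reads per library, at 570.1, 533 and 532 CPM in wild-type testes and at 494, 528, 497 and 453 CPM in mutant testes. It was the 1 gene of the 7 whose mutant libraries were all below the wild-type libraries, against 4.73% of all genes, and its log2 difference was -0.15 (edgeR adjusted p = 0.528).

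*Cpsf3* repeat reads were at 99.1, 98.6 and 112 CPM in wild-type testes and at 87.3, 101, 91.3 and 86.4 CPM in mutant testes, and the groups overlapped (log2 difference -0.18, edgeR adjusted p = 0.559). *Cstf2* was at 50.4, 55.9 and 60.4 CPM in wild-type testes and at 42.3 to 52.9 CPM in mutant testes (log2 difference -0.21, edgeR adjusted p = 0.599). *Wdr33*, covered by 534 to 920 reads per library, was at 365, 337 and 336 CPM in wild-type testes and at 310 to 380 CPM in mutant testes, with a log2 difference of 0.01 where its FPKM gave -0.20. *Cpsf4* and *Cpsf2* were at 0.19 and 0.05 and *Cpsf1* at -0.33, on as few as 18 reads in a library. For *Cpsf2* and *Wdr33* the direction turned under some alternatives.

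Genes beside *Cpsf4l* were examined to see whether its neighbourhood differed between the groups. Of 10 genes within 500000 bases, 7 passed the filter on low values. The limma fit called 0 of 7 at an adjusted p of 0.05, where 1 of all 13988 genes (0.00715%) was called lower. That total includes *Cpsf4l*, and so few calls do not set the neighbours apart from other genes. At an unadjusted p of 0.05 the fit called 1, lower, against 8.79% of all genes, a share near the background. *D11Wsu47e*, the nearest gene downstream, lies on the opposite strand and its end faces the end of *Cpsf4l* across 3524 bases. It was at 15.3, 16.1 and 12.5 FPKM in wild-type testes and at 11.9, 12.0, 10.7 and 11.5 FPKM in mutant testes, lower in every mutant library (log2 difference -0.32, 95% interval -0.54 to -0.10, limma adjusted p = 0.193). Without wild-type replicate 3 the log2 difference was -0.42 with a limma adjusted p of 0.0273, in a fit that called 3.99% of all genes lower. Repeat loci in the gap between the 2 genes were at 7.14, 4.93 and 8.83 CPM in wild-type testes and at 3.79, 4.57, 2.91 and 3.76 CPM in mutant testes, from 5 to 19 reads per library, and the groups were apart. Without strand, these reads cannot be given to either gene.

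*Cdc42ep4*, the nearest gene upstream at 16833 bases, which encodes an effector of the GTPase CDC42, was at 38.6, 30.9 and 31.5 FPKM in wild-type testes and at 28.0 to 31.6 FPKM in mutant testes (log2 difference -0.16, limma adjusted p = 0.408). The difference was -0.05 without wild-type replicate 1 and -0.20 without wild-type replicate 3. *Fam104a*, 14020 bases downstream, had the most positive log2 difference, 0.05 with a 95% interval from -0.15 to 0.26, and it was between 0.0 and 0.13 with 1 library left out.

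**Figure D5:**
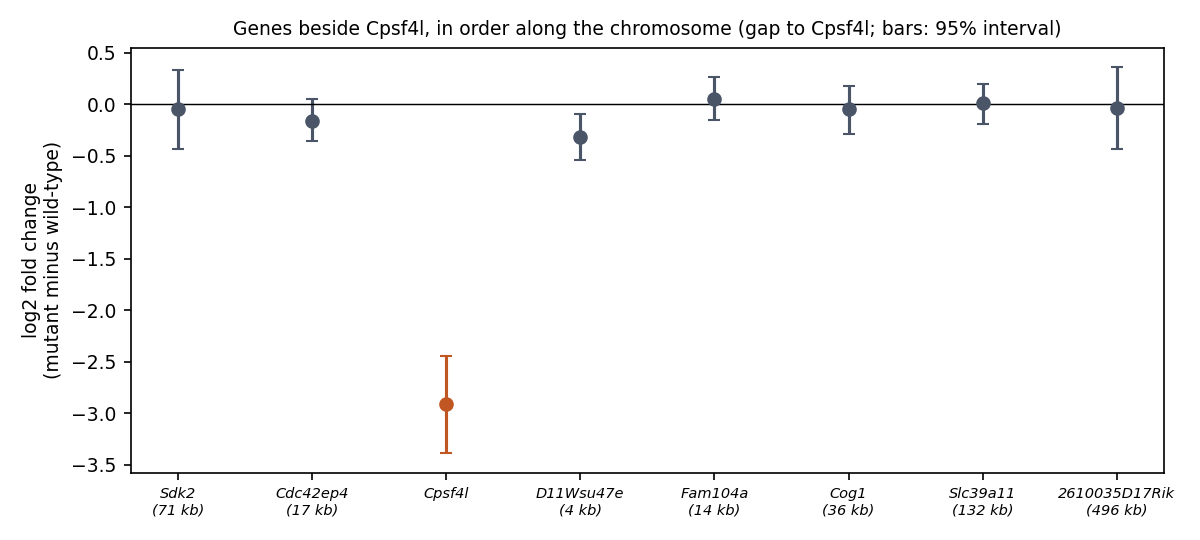
Log2 fold change (mutant minus wild-type, of FPKM + 0.5) with its 95% interval from limma for *Cpsf4l* (orange) and the 7 tested genes within 500000 bases (grey), in order along the chromosome in the direction of *Cpsf4l* transcription, with the gap to *Cpsf4l* under each name. *D11Wsu47e* is the lowest neighbour at -0.32 and *Cpsf4l* lies at -2.91.

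Genes whose pattern over the 7 libraries was most like that of *Cpsf4l* included *Tdh*, *Krt42*, *Rimbp2* and *Tcl1*, at a root mean square difference of 0.53, 0.67, 0.72 and 0.87 between centred log2(FPKM + 0.5) values. *Tdh*, the closest, was at 11.1, 3.97 and 9.04 FPKM in wild-type testes and at 0.797, 1.09, 1.63 and 1.58 FPKM in mutant testes. *Krt42* was listed at 0 in mutant replicates 1 and 2. They were chosen for their likeness over these libraries, so their values are a description.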

How the data were processed

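RNA-Seq was made from rRNA-depleted total RNA of 7 pairs of E14.5 testes, 1 pair per library. The authors aligned reads without strand to mm10 with TopHat 2.0.12, and the deposited FPKM are from Cuffquant and Cuffnorm on RefSeq models. The deposited counts are uniquely mapped reads per LINE, SINE or LTR locus, made by the authors with HTSeq-count and not normalized. In both files the header lacks 1 tab, between the names of wild-type replicate 3 and mutant replicate 1, so columns were taken by number. Groups and replicate numbers come from the titles.

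FPKM were analyzed as log2(FPKM + 0.5) with limma 3.58.1 under R 4.3.3 (two-sided, with a variance trend), keeping genes that averaged 0.5 FPKM or more. Counts were summed over loci inside 1 gene that touch no GENCODE M21 exon and tested with edgeR 4.0.16 (TMM, quasi-likelihood, mean of at least 10 reads). DESeq2 1.42.0 was an alternative. Adjusted p-values are Benjamini-Hochberg over all genes, with a threshold of 0.05. Exact permutation tests used the 35 splits into 3 and 4. Tables and windows were made in Python 3.11.15. Intervals and p-values cover the spread between these embryos. Cuffdiff, which needs aligned reads, was not used here.

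The genes and lists were chosen with earlier results of these data known. The germ cell markers are named in full. Named were all 8 genes, *Glis3*, the 3 largest rises and falls of the wider list with *Sympk*, *Cstf2t*, *Papola*, *Papolb* and *Nudt21*, the nearest neighbour on each side with the largest rise and fall, and the 5 genes closest in pattern, of which 1 is not reported here. The counts without wild-type replicate 3 of genes whose groups were apart, and at an unadjusted p, were added after the data had been seen.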

Additional observations from a re-analysis of the deposited data

How the results depend on the processing

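Among the alternatives, *Cpsf4l* stayed between -2.53 and -3.36 on the log2 scale, at -3.36 with a pseudocount of 0.1, -2.53 with 1, and -2.69 to -3.10 with 1 library left out. No subunit was called under any alternative, and their median moved from -0.18 to between -0.25 and -0.09 with 1 library left out. Without wild-type replicate 3, 722 genes were called in place of 1 (560 of them lower), 2 genes of the wider list (*Cpeb1* and *Clp1*) in place of 0, its median went from -0.05 to -0.10, and 1 neighbour was called (*D11Wsu47e*). With 1 other library left out, 1 to 5 genes were called in all, 4 with no filter, 3 with quantile normalization and 0 with the replicate block. *Papola*, at 0.0, was between -0.08 and 0.07 with 1 library left out, and below 0 in 4 alternatives, among them -0.01 without mutant replicate 2 or 3 and quantile normalization, which gave less than 0.01 in size. *Sympk* was between -0.32 and 0.08 with 1 library left out, above 0 without wild-type replicate 1. For repeat reads, the subunit median was -0.06 with a mean of at least 50 reads (6 genes) in place of -0.15, *Cpsf2* was between -0.10, without wild-type replicate 1, and 0.23 with 1 library left out, and *Wdr33*, at 0.01 and between -0.03 and 0.07 with 1 library left out, was below 0 in 6 alternatives (-0.01 with no filter or with the replicate block, -0.02 with loci in exons counted, the rest with 1 library left out). Genes called in all by repeat reads went from 28 to between 1 and 115, with 2 under the block. At a mean of at least 50 reads *Cpsf4l* repeat reads gave no value.

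The replicate block, which treats libraries with the same number as pairs, left 0 genes called by limma in place of 1. The subunits, the wider list and the neighbours had 0 calls with and without the block, and *Cpsf4l* was not tested. Deviations of same-numbered libraries correlated at 0.20, -0.18 and 0.23, and nothing in the labels ties the numbers to a litter or day, so the numbers were not taken as pairs. The depth behind FPKM is unknown, and *Cpsf4l* and *Cpsf1* rest on few repeat reads. Of 588 alternative values, 556 kept their direction and side of the threshold or moved less than the spread between libraries.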
